A study of Caenorhabditis elegans with 9 samples.

Results

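Gene expression was compared between the nth-1;xpa-1 double mutant of Caenorhabditis elegans, on 2 arrays, and the wild-type strain Bristol N2, on 2 arrays, out of 9 arrays in the whole series. The members were chosen by the strain given in the labels, and every probe set that is not a control was compared, 22548 in all, which represent 17118 genes that have at least 1 probe set naming no other gene. The double mutant carries the deletion alleles nth-1(ok724) and xpa-1(ok698) and was generated for the study, and the strains were backcrossed before use. Each array holds RNA of a mixed-stage culture grown on plates seeded with the bacterial strain HT115(DE3) until the food was cleared. The single mutants xpa-1 (2 arrays) and nth-1 (3 arrays) enter the shared estimate of the spread and the comparisons of the double mutant with them. The design text calls the mutants RNAi mutants, whereas the study's methods give deletion alleles. Because RNA came from whole animals of all stages, a lower value can mean fewer cells of a type or less RNA per cell, and these cannot be told apart.

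NTH-1 is the DNA glycosylase that opens base excision repair of oxidised pyrimidines by cutting the damaged base from the DNA backbone. XPA-1 acts in nucleotide excision repair, where it joins the complex that verifies a distorted stretch of DNA before the strand is cut out. In C. elegans the body cells of the adult no longer divide, so genes for DNA replication and mitosis are read mostly in the germ line, in embryos and in growing larvae.

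Values below are levels or differences of the deposited log2 expression values, where a difference of 1 is a doubling. A gene is said to have risen or fallen where its adjusted p was under 0.05 in limma, a linear model with a moderated variance fitted here to all 9 arrays together. Both nth-1;xpa-1 arrays lay above both N2 arrays for 37.8% of all genes and below both for 32.1%. Arrays of the strains that do not overlap were thus common, and below they add little to a call. The pair of double mutant arrays lay close to each other, with a median SD over probe sets of 0.099, against 0.092 for the N2 pair. The nth-1 arrays, which share the estimate of the spread, had a median SD of 0.24, and 0.12 without their replicate 3. The level of the hybridization control BioC was high on both double mutant arrays, both N2 arrays and xpa-1 replicate 1, and low on the other 4 arrays. The nth-1;xpa-1 and N2 arrays were thus on the same side of this gap. Among markers of the tissues of the worm, 4 of 8 for the zygotic embryo (med-1, tbx-37, pes-10 and hlh-1) were below the 25th percentile of values on all 4 arrays. So were ceh-22, daf-28 and klp-6. Whether the other markers were detected was not tested.

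The double mutant differed from N2 in nearly equal numbers of genes in both directions. Of 22548 probe sets, 957 rose (4.24%) and 991 fell (4.4%), and 598 of the rises and 492 of the falls were at least 1 in size on the log2 scale. Counted by gene, 771 rose (4.5%) and 786 fell (4.59%). In the 4 arrays alone 23.1% of all genes rose and 21.8% fell. At an unadjusted p under 0.05, 2983 of the 22548 probe sets were higher and 2900 lower. Counts for the lists below are to be read beside these. The median difference over all probe sets was 0.05, and with each array centred on its median 786 probe sets rose and 1356 fell, so that 36.7% of the calls were rises, against 49.1% as deposited. The counts depend on which arrays estimate the spread: fitted on the 4 arrays alone, 5100 probe sets rose (22.6%) and 4759 fell (21.1%), and without nth-1 replicate 3 the numbers were 3037 and 2873. Without nth-1;xpa-1 replicate 1, 72 rose and 86 fell, without nth-1;xpa-1 replicate 2 70 and 85, without N2 replicate 1 78 and 85, and without N2 replicate 2 62 and 73. By a ratio of mean linear signals of at least 1.8, the kind of threshold that needs no estimate of the spread, 1518 probe sets were higher (6.73%) and 1178 lower (5.22%), which were 1171 genes (6.84%) and 901 genes (5.26%).

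**Figure D1:**
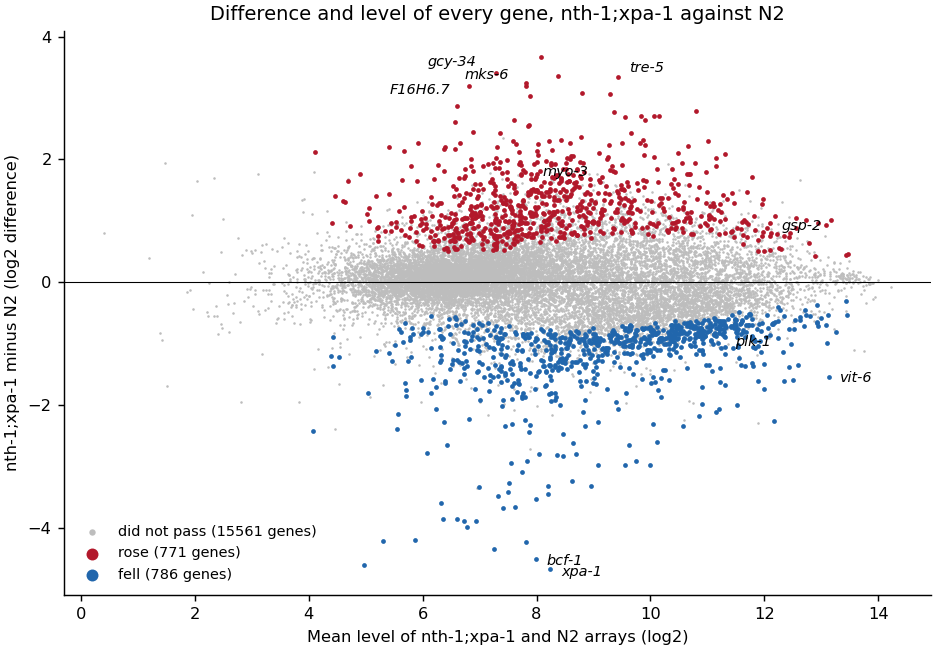
Difference between nth-1;xpa-1 and N2 (log2, y axis) against the mean level of both strains (log2, x axis) for each of the 17118 genes, with the genes that rose in red, those that fell in blue and the rest in grey. The 771 rises and 786 falls spread over the whole range of levels, and the largest difference is that of xpa-1 itself, at -4.67.

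The largest fall was that of the deleted gene. The xpa-1 transcript was 6.03 and 5.78 on the nth-1;xpa-1 arrays, against 10.57 and 10.58 on the N2 arrays. The strains did not overlap, the log2 difference was -4.67 (standard error 0.296, adjusted p = 0.000256), and the level in the double mutant was close to that of the xpa-1 arrays, at 6.59 and 5.66. The nth-1 transcript was 9.46 and 9.38 in nth-1;xpa-1, against 9.63 and 9.32 in N2, with overlapping arrays and an adjusted p of 0.924. The deposited data do not say whether its probes lie inside the ok724 deletion, so this value does not check the label.

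Next to xpa-1 on chromosome I lies mks-6, which encodes a protein of the transition zone at the base of cilia. Its level was 9.33 and 9.5 in nth-1;xpa-1, against 6.31 and 6.12 in N2 (difference 3.20, standard error 0.220, adjusted p = 0.00035). The strains were far apart, and the xpa-1 arrays were higher still, at 10.66 and 10.19, which left the double mutant 1.01 below xpa-1 (adjusted p = 0.00835). Of the 20 nearest measured genes around xpa-1, mks-6 was the single one that rose and none fell, and the lowest adjusted p of the others was 0.0502, for mlt-2. Around nth-1 on chromosome III, 1 of 20 measured neighbours rose and 1 fell. These were R10E4.7, at 9.01 and 8.96 in nth-1;xpa-1, against 7.65 and 7.64 in N2 (difference 1.34, adjusted p = 0.0156), and the replication gene mcm-5, described below.

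The 10 genes with the largest rises were gcy-34, tre-5, pho-6, T28A11.19, T28A11.6, F16H6.7, T09B4.6, C16D9.9 and F47B8.10 beside mks-6. The guanylate cyclase gene gcy-34, which is read in oxygen-sensing neurons, was at 8.98 and 9 in nth-1;xpa-1, against 5.51 and 5.67 in N2 (difference 3.40, standard error 0.230, adjusted p = 0.00035). The trehalase gene tre-5, whose product splits the sugar trehalose, was at 11.16 and 11.04 in nth-1;xpa-1, against 7.79 and 7.74 in N2 (difference 3.33, adjusted p = 0.000438). On the single mutant arrays gcy-34 lay between 5.39 and 6.17 and tre-5 between 7.75 and 8.35, and the double mutant exceeded xpa-1 by 3.48 for gcy-34 (adjusted p = 0.00016) and by 3.10 for tre-5 (adjusted p = 0.000238). F16H6.7 had the smallest adjusted p of the set, 8.08e-05, at 8.48 and 8.33 in nth-1;xpa-1, against 5.28 and 5.15 in N2. Of the 10, 9 were higher than in xpa-1, 9 higher than in nth-1 and 8 higher than in both. The exceptions were mks-6, lower than in xpa-1, and T28A11.19, which did not pass against nth-1 (difference 1.42, adjusted p = 0.0785). With each of the 4 arrays left out in turn, 5 of the 10 rises kept an adjusted p under 0.05 every time.

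The 10 largest falls showed another distribution over the strains. Beside xpa-1 they were F07G11.1, bcf-1, F59B2.12, D1086.3, K03D3.5, K12H6.4, C35B1.3, C13A2.4 and ZK1290.11. Levels of bcf-1 were 5.72 and 5.75 in nth-1;xpa-1, against 10.14 and 10.35 in N2 (difference -4.51, standard error 0.309, adjusted p = 0.00035). The xpa-1 arrays had bcf-1 at 5.69 and 5.8, and the difference of the double mutant from xpa-1 was -0.01 (standard error 0.309, adjusted p = 0.985). F59B2.12 was at 5.13 and 5.04 in nth-1;xpa-1, against 9.29 and 9.55 in N2, and K12H6.4 at 4.09 and 3.47 in nth-1;xpa-1, against 7.97 and 7.97 in N2. For these genes, K03D3.5, C35B1.3 and ZK1290.11, 5 in all, the double mutant did not pass the test against either single mutant. The differences of F59B2.12 were 0.07 from xpa-1 (standard error 0.309) and -0.05 from nth-1. D1086.3 was the only one of the 10 that was lower in the double mutant than in both single mutants, at 5.51 and 5.88 in nth-1;xpa-1, against 9.98 and 9.87 in N2, and 2.47 below xpa-1 (adjusted p = 0.0287). Of the 10 falls, 7 kept an adjusted p under 0.05 whichever of the 4 arrays was left out.

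Genes of DNA replication had lower values in the double mutant. None of 47 measured members rose, 18 fell, and all 47 differences were negative, between -1.32 and -0.20 with a median of -0.77, against 0.05 over all genes. On 45 of the 47, both nth-1;xpa-1 arrays lay below both N2 arrays, which was the case for 32.1% of all genes. The sliding clamp gene pcn-1 (PCNA) was at 9.16 and 8.96 in nth-1;xpa-1, against 10.29 and 10.15 in N2 (difference -1.16, standard error 0.206, adjusted p = 0.0148). The helicase-nuclease gene dna-2 was at 8.2 and 7.94 in nth-1;xpa-1, against 9.38 and 9.34 in N2, the largest fall of the list that passed the test. No array of either strain crossed over for these genes. None of the 47 was higher at an unadjusted p under 0.05 or in the 4 arrays alone. Also among the falls were tim-1 (-1.18), whose product steadies the fork, the clamp loader genes rfc-2 (-0.82), rfc-3 (-0.77) and rfc-4, the ribonucleotide reductase gene rnr-2 (-0.91) and the dUTPase gene dut-1 (-0.83).

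The MCM helicase unwinds DNA at the fork and is built of 6 related subunits, mcm-2 to mcm-7. All 6 had negative differences, of which mcm-3, mcm-5 and mcm-6 fell and the others did not pass. The level of mcm-6 was 9.35 and 9.38 in nth-1;xpa-1, against 10.42 and 10.62 in N2 (-1.16, standard error 0.243, adjusted p = 0.0257), and that of mcm-5 was 10.56 and 10.44 in nth-1;xpa-1, against 11.3 and 11.41 in N2 (-0.85, adjusted p = 0.0453). The smallest difference was that of mcm-4, at 11.02 and 11.38 in nth-1;xpa-1, against 11.64 and 11.35 in N2, where the strains overlapped. None of the 18 calls of the replication list was kept when any 1 of the 4 arrays was left out, while 38 members fell without nth-1 replicate 3 and 43 in the 4 arrays alone.

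Genes that build and move chromosomes in mitosis also had falls and few rises. The kinetochore, which ties chromosomes to the spindle, had 13 falls and no rise among 24 measured genes, with a median of -0.86. All 24 had both nth-1;xpa-1 arrays below both N2 arrays, against 32.1% of all genes. The centromeric histone gene hcp-3 (CENP-A) was at 10.17 and 10.03 in nth-1;xpa-1, against 11.07 and 11.04 in N2, and knl-2, whose product helps to load that histone, was at 9.44 and 9.42 in nth-1;xpa-1, against 10.58 and 10.5 in N2. Both fell, hcp-3 with an adjusted p of 0.0178 and knl-2 with one of 0.0103, and so did the checkpoint kinase gene bub-1 (-0.94, adjusted p = 0.0295). Of 39 genes of the spindle, centrosome, cohesin and condensin, 10 fell and none rose, with a median of -0.61. They included klp-18, a kinesin of the oocyte spindle (-1.47), tpxl-1, the activator of Aurora A (-1.34), the cohesin subunit gene scc-1 (-1.16) and sas-5, needed for centriole duplication (-1.11). Among 37 cyclins, cyclin-dependent kinases and their regulators 10 fell and none rose. The B-type cyclin genes cyb-2.1, cyb-2.2 and cyb-3 and the S-phase cyclin gene cya-1 were in this group, and cdk-1 was at 10.57 and 10.37 in nth-1;xpa-1, against 11.32 and 11.44 in N2 (-0.91, standard error 0.191, adjusted p = 0.0257).

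The Aurora B kinase AIR-2 and the Polo-like kinase PLK-1 drive chromosome segregation and cytokinesis, and the phosphatase GSP-2 (protein phosphatase 1) acts against AIR-2. The plk-1 transcript was 10.98 and 10.79 in nth-1;xpa-1, against 11.6 and 11.78 in N2, and the air-2 transcript 8.81 and 8.87 in nth-1;xpa-1, against 9.73 and 9.67 in N2. The strains did not overlap for either gene, with a fall of plk-1 (difference -0.80, standard error 0.149, adjusted p = 0.0166) and of air-2 (difference -0.86, standard error 0.210, adjusted p = 0.041). By contrast, gsp-2 was at 12.55 and 12.47 in nth-1;xpa-1, against 11.72 and 11.7 in N2 (difference 0.80, standard error 0.152, adjusted p = 0.0183). It was the single rise among 21 measured genes of this group, in which 6 fell, the others being cyk-7, plk-3, ani-2 and zen-4. The passenger gene icp-1 (INCENP) and the centralspindlin gene cyk-4 were lower on both arrays but did not pass (adjusted p = 0.0793 and 0.178). A further probe set of plk-1 differed by -1.08 and a further one of gsp-2 by 1.06, each in the direction of the first. None of the calls for the kinetochore or Aurora and Polo lists was kept when any 1 of the 4 arrays was left out, and 24 and 17 of their members fell in the 4 arrays alone, against 20 and 12 without nth-1 replicate 3. The cyclin list then kept at most 1 fall and the spindle list none, with 25 and 33 falls in the 4 arrays alone.

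**Figure D2:**
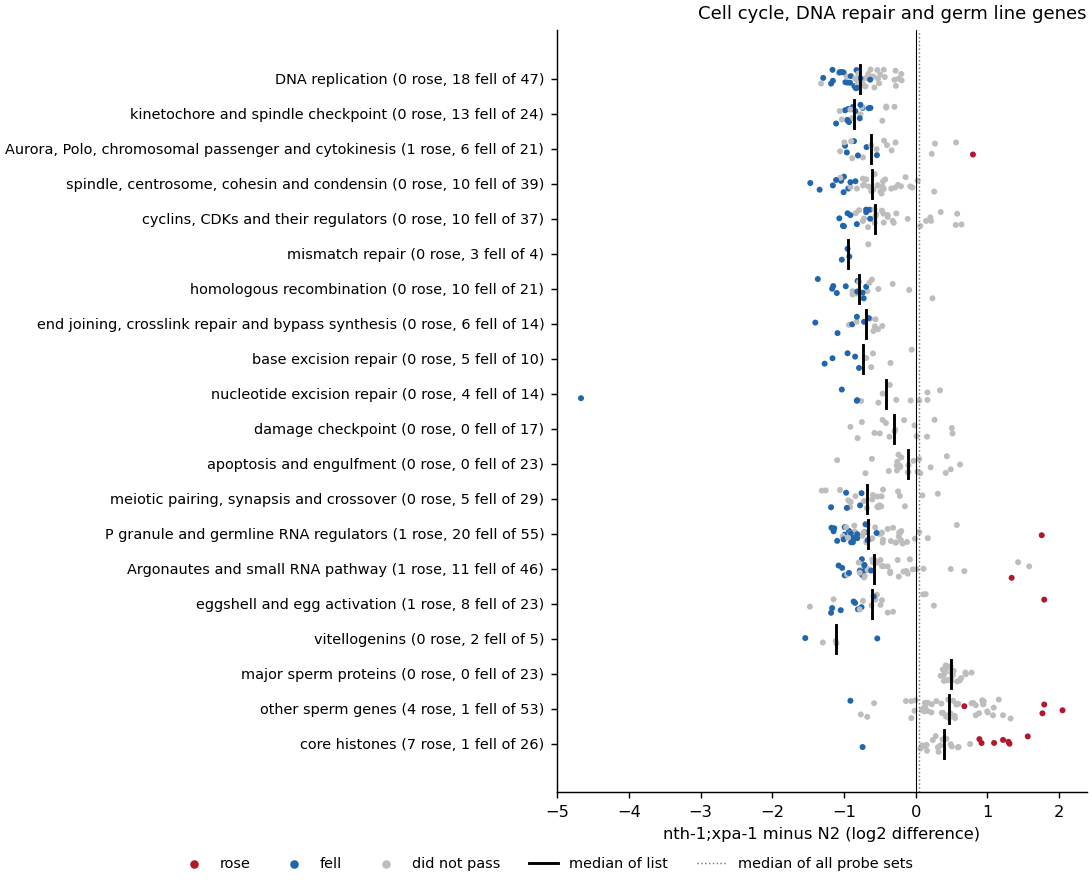
Difference between nth-1;xpa-1 and N2 (log2) for each measured gene of 20 lists, with rises in red, falls in blue, other genes in grey, the median of each list as a black bar and the median of all probe sets as a dotted line. The lists of replication, mitosis, repair, meiosis and eggs have medians left of 0, such as -0.77 for DNA replication, whereas sperm genes and core histones have medians right of it, such as 0.49 for major sperm proteins.

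Falls without rises were also found among DNA repair genes. Over 102 distinct genes of 7 repair and damage response lists 27 fell, xpa-1 among them, and none rose, with a median of -0.57. Of 4 mismatch repair genes 3 fell. These were msh-2 and msh-6, which recognise mispaired bases, and the nuclease gene exo-1. The level of msh-2 was 9.16 and 9.36 in nth-1;xpa-1, against 10.08 and 10.34 in N2 (-0.95, adjusted p = 0.0301), and that of msh-6 was 9.2 and 9.3 in nth-1;xpa-1, against 10.06 and 10.29 in N2 (-0.93, adjusted p = 0.0176). Both genes were separated between the strains on every array. The brightest probe set of mlh-1, their partner, did not pass (-0.66, adjusted p = 0.0649), while a dimmer one did (-1.17, adjusted p = 0.0475).

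Homologous recombination, which copies an intact template to mend double-strand breaks, had 10 falls and no rise among 21 genes. The BRCA1 gene brc-1 was at 9.05 and 8.96 in nth-1;xpa-1, against 10.15 and 10.16 in N2 (difference -1.15, standard error 0.185, adjusted p = 0.0105). The recombinase gene rad-51 was at 10.03 and 9.77 in nth-1;xpa-1, against 10.6 and 10.82 in N2 (-0.81, adjusted p = 0.0314), and the helicase genes him-6 (Bloom) and wrn-1 (Werner) fell as well. None of these genes had overlapping arrays, and 32.1% of all genes lay below N2 in this way. In end joining, crosslink repair and bypass synthesis 6 of 14 fell, among them cku-80, a subunit of Ku that caps broken ends, and polq-1, the polymerase theta gene that joins ends by microhomology.

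Base excision repair, the pathway in which NTH-1 works, had 5 falls and no rise among 10 genes. The apurinic endonuclease gene exo-3, whose product acts directly after the glycosylase, was at 7.73 and 7.99 in nth-1;xpa-1, against 9.11 and 9.15 in N2 (difference -1.27, standard error 0.264, adjusted p = 0.0248). The uracil glycosylase gene ung-1 was at 7.83 and 7.6 in nth-1;xpa-1, against 8.51 and 8.5 in N2 (-0.79, adjusted p = 0.0369). The other falls were tdpt-1 and the replication genes pcn-1 and crn-1, which the lists share. In nucleotide excision repair 4 of 14 fell, and apart from xpa-1 these were rpa-1, rfc-2 and xpf-1, which also serve replication or recombination. No gene of 17 in the damage checkpoint or of 23 in apoptosis and engulfment passed, at an unadjusted p under 0.05 1 was higher and 3 lower, and 1 higher and 2 lower, and the medians were -0.29 and -0.11. In the 4 arrays alone 2 rose and 10 fell, and 4 rose and 6 fell, where 23.1% of all genes rose and 21.8% fell. With any 1 of the 4 arrays left out, xpa-1 was the one repair gene that kept its call, and in the 4 arrays alone 68 of the 102 fell and 6 rose.

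A set of 50 genes was taken from those the study names, mostly for nth-1;xpa-1, with xpa-1 and nth-1 included. It does not hold every gene the study names, and many of its members are described above. Of the 50, 27 fell, the deleted gene xpa-1 among them, and 1, gsp-2, rose. The dimmer of 2 probe sets of mre-11 fell (-0.95, adjusted p = 0.0183), while the brighter one was at 10.61 and 11.05 in nth-1;xpa-1, against 11.24 and 11.06 in N2 (adjusted p = 0.509). Likewise cnb-1, the regulatory subunit gene of calcineurin, differed by 0.17 on its brightest probe set and by 1.13 on another, neither of which passed. The 6 probe sets of cdc-14 ran from -0.62 to 1.11 and none passed. The choice of probe set therefore sets the value for these genes. This set was chosen by the study on these same arrays, so its count is not independent evidence of its direction.

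Among regulators of germline RNA and genes of the egg falls outnumbered rises. Of 55 regulators of P granules and germline RNA 20 fell and 1 rose, with a median of -0.67. The oocyte maturation gene oma-1 was at 9.05 and 8.88 in nth-1;xpa-1, against 10.03 and 10.19 in N2 (-1.15, adjusted p = 0.0315), and the embryonic fate gene pos-1 at 12.59 and 12.48 in nth-1;xpa-1, against 13.08 and 13.08 in N2 (-0.55, adjusted p = 0.0108). The P granule helicase genes glh-1 and glh-4, the Pumilio genes puf-3 and puf-11 and the Notch receptor gene glp-1, which keeps germ cells dividing, were among the falls. The exception was cpb-2, a gene of the CPEB family, at 9.5 and 9.35 in nth-1;xpa-1, against 7.67 and 7.66 in N2 (difference 1.76, adjusted p = 0.0175). Of 23 eggshell and egg activation genes 8 fell, including the chitin synthase gene chs-1 (-1.17), egg-3 (-1.18) and the chondroitin proteoglycan gene cpg-2 (-0.81). The single rise was spe-11, whose product is brought to the egg by sperm, at 9.69 and 9.76 in nth-1;xpa-1, against 7.95 and 7.91 in N2 (1.79, adjusted p = 0.0296).

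Small RNA genes divided in a similar way. Among 46 Argonautes and small RNA pathway genes 11 fell and 1 rose. The nuclear Argonaute gene hrde-1 was at 10.1 and 9.77 in nth-1;xpa-1, against 10.83 and 11.09 in N2 (-1.02, adjusted p = 0.0153), and wago-1, drsh-1, the Drosha gene of microRNA processing, and ego-1, an RNA-dependent RNA polymerase gene of the germ line, also fell. The rise was that of alg-3, an Argonaute gene of spermatogenesis, at 9.21 and 9.18 in nth-1;xpa-1, against 7.85 and 7.86 in N2 (1.34, adjusted p = 0.0219). Of 29 genes of meiotic pairing, synapsis and crossover 5 fell, namely zim-2, msh-5, htp-3, sun-1 and pch-2, and none rose. None of these germ line calls was kept when any 1 of the 4 arrays was left out, except at most 1 eggshell fall, and in the 4 arrays alone 42 P granule, 32 Argonaute, 18 eggshell and 24 meiotic genes fell.

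Vitellogenins, the yolk proteins that the adult intestine makes for oocytes, were all lower. The vit-6 transcript was 12.39 and 12.34 in nth-1;xpa-1, against 13.89 and 13.92 in N2 (difference -1.54, standard error 0.0887, adjusted p = 0.000172). On its other probe set the difference was -1.81. vit-2 was at 13.1 and 13.27 in nth-1;xpa-1, against 13.66 and 13.78 in N2, and fell by 0.54 (adjusted p = 0.0286). The other 3 measured members did not pass, although all 5 had both nth-1;xpa-1 arrays below both N2 arrays, as had 32.1% of all genes. The vit-6 call was kept without any 1 of the 4 arrays, that of vit-2 was not, and all 5 fell in the 4 arrays alone. Some vitellogenin genes are near copies of each other and can share signal.

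Sperm genes went the other way. All 23 measured major sperm protein genes, which encode the protein that moves the sperm cell, had both nth-1;xpa-1 arrays above both N2 arrays, against 37.8% of all genes. Their differences ran from 0.35 to 0.78, yet none passed the test and none had an unadjusted p under 0.05. All 23 rose in the 4 arrays alone, against 23.1% of all genes. These genes are near-identical copies whose probe sets can share signal, so 23 is not a count of separate measurements. Of 53 other sperm genes 4 rose and 1 fell, with a median of 0.47. The highest rise was spe-46, at 9.73 and 9.61 in nth-1;xpa-1, against 7.55 and 7.69 in N2 (2.05, adjusted p = 0.0158), and spe-10, a palmitoyltransferase gene of sperm organelles, was at 8.57 and 8.66 in nth-1;xpa-1, against 6.83 and 6.86 in N2 (1.77, adjusted p = 0.00304). The fall was spe-39, which also works in vesicle traffic outside sperm. Of these calls 1 was kept when any 1 of the 4 arrays was left out, and in the 4 arrays alone 30 rose and 4 fell. Core histones, likewise gene copies in part, had 7 rises and 1 fall among 26, led by his-62 at 10.47 and 10.3 in nth-1;xpa-1, against 8.85 and 8.79 in N2 (1.57, adjusted p = 0.00423). The replacement histone genes his-70 and his-71 were among the rises. At most 1 histone rise was kept when 1 of the 4 arrays was left out, and in the 4 arrays alone 18 rose and 1 fell.

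Signal was also summed over markers of tissues. Several markers, such as oma-1, pos-1, glp-1, spe-11, vit-2, vit-6 and myo-3, are members of the gene lists too. The direction of the sums is therefore not separate evidence for these groups. The summed linear signal of 8 oocyte and early embryo markers was 21564 and 21307 in nth-1;xpa-1, against 32668 and 33189 in N2, a ratio of 0.651, and that of 7 germ line markers 7279 and 6703 in nth-1;xpa-1, against 10638 and 10916 in N2. Of 8 intestinal markers the sum was 32646 and 33113 in nth-1;xpa-1, against 55324 and 57487 in N2, a ratio of 0.583, to which the bright vit-2, vit-5 and vit-6 contribute. Of the 8 intestinal markers 4 fell and 3 (elt-2, ifb-2 and pept-1) rose in the 4 arrays alone, so the lower sum does not hold for each marker. Sperm markers summed to 11289 and 11618 in nth-1;xpa-1, against 7786 and 7003 in N2, and 6 body wall muscle markers to 18822 and 18972 in nth-1;xpa-1, against 9839 and 10541 in N2, a ratio of 1.85. The ratio was 1.26 for zygotic embryo, 1.43 for pharynx and 0.843 for dauer markers, and it was closer to 1 for neurons (1.07), epidermis (0.973) and male (1.02). The 4 male markers had the lowest sums of all sets, 392 and 426 in nth-1;xpa-1, against 405 and 393 in N2. Their ratio therefore rests on dim signal. Of the dauer markers hsp-12.6 rose and ges-1, also an intestinal marker, fell, and their N2 sums were 11502 and 9371. No zygotic embryo marker passed, 4 of the 8 were below the 25th percentile, and elt-2 is also an intestinal marker. These ratios do not show a shift of each marker. Whether a changed share of tissues or stages has a part in the differences of the gene groups was not tested. The log2 ratio of 3' to 5' actin probe sets, which falls as RNA is better preserved, was 2.04 and 2.1 in nth-1;xpa-1, against 2.01 and 1.8 in N2, and that of Gapdh 2.34 and 2.47 in nth-1;xpa-1, against 2.59 and 2.51 in N2, and their part in the results was not tested.

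**Figure D3:**
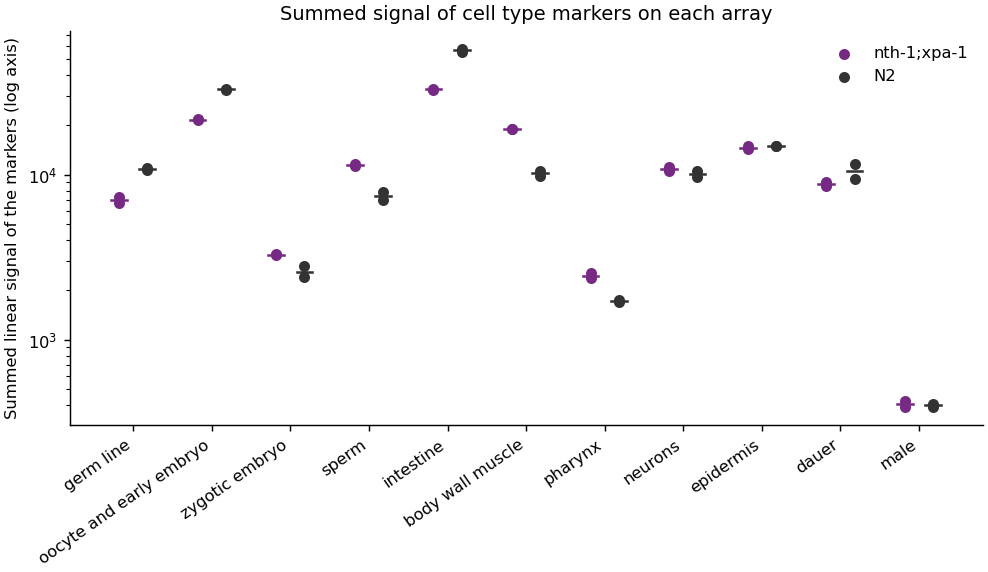
Summed linear signal of the measured markers of 11 tissues or stages (log axis) on each nth-1;xpa-1 array (purple, left of each pair) and N2 array (black, right), with the mean of each pair as a line. Germ line, oocyte and intestine sums were lower in nth-1;xpa-1, and sperm, muscle and pharynx sums higher.

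The lists of neuronal genes differed among themselves. Over 1850 distinct genes of the neuronal lists, most of which are chemoreceptors, 53 rose and 9 fell, both smaller shares than the 4.5% and 4.59% of all genes. Neuropeptides stood at the top. Of 51 neuropeptide genes outside the FMRFamide-like family 10 rose and none fell, with a median of 0.53. The level of nlp-69 was 10.95 and 10.89 in nth-1;xpa-1, against 8.89 and 8.82 in N2 (difference 2.06, standard error 0.347, adjusted p = 0.0121), and that of nlp-47, a gene of a peptide related to gonadotropin-releasing hormone, was 9.35 and 9.91 in nth-1;xpa-1, against 8.04 and 7.82 in N2 (1.70, adjusted p = 0.00395). All N2 arrays were below all nth-1;xpa-1 arrays for both genes. The FMRFamide-like genes had the highest median of all lists, 0.75 over 25 genes, with 22 of 25 above N2 on both arrays, against 37.8% of all genes. None of them passed with adjustment, 11 were higher and none lower at an unadjusted p under 0.05, and 20 rose in the 4 arrays alone. At that unadjusted threshold 2983 of all 22548 probe sets were higher and 2900 lower, and 23.1% of all genes rose in the 4 arrays alone.

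Potassium channels had 9 rises and 1 fall among 73 genes, and the rises included several genes of the 2-pore twk class. Among them was twk-7, at 9.74 and 9.49 in nth-1;xpa-1, against 8.05 and 8.25 in N2 (1.47, adjusted p = 0.0258). Another was sup-9, of the same class, at 7.31 and 7.39 in nth-1;xpa-1, against 6.04 and 6.05 in N2 (adjusted p = 0.00246). The fall was also that of a twk gene, twk-4, at 3.56 and 4.02 in nth-1;xpa-1, against 4.92 and 5.07 in N2 (-1.205, adjusted p = 0.0156). In the list of ligand-gated channels 7 rose, 38 in the 4 arrays alone, and 1, lgc-32, fell, where 1 of the rises is exp-2, a voltage-gated potassium channel gene that is counted in both lists, and the acetylcholine receptor subunit gene unc-29 of muscle was among the rises. The glutamate transporter gene eat-4, which loads synaptic vesicles, was at 7.37 and 7.62 in nth-1;xpa-1, against 5.86 and 5.73 in N2 (difference 1.70, adjusted p = 0.00583). The calcium channel gene unc-2, needed for transmitter release, was at 8.93 and 8.97 in nth-1;xpa-1, against 7.81 and 7.76 in N2 (1.17, adjusted p = 0.00548). tdc-1, which makes tyramine, fell instead, at 10.17 and 10.19 in nth-1;xpa-1, against 11.21 and 11.18 in N2. Of 72 guanylate cyclase and sensory signaling genes 4 rose, gcy-34, gcy-12, gpa-1 and gpa-9, and of 61 cilium genes 3, mks-6, xbx-3 and osm-3, and of 67 genes of synaptic release and transmitter synthesis 3 rose and 1 fell, all shares close to the 4.5% of all genes that rose. At most 6 of the neuronal rises and no fall were kept when 1 of the 4 arrays was left out, and in the 4 arrays alone 339 rose and 56 fell, again smaller shares than the 23.1% and 21.8% of all genes. No direction is given for the chemoreceptor list as a whole, because the sign of its median changed with the scaling.

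Muscle genes had 6 rises and 1 fall among 54, with a median of 0.33. The myosin heavy chain gene myo-3 was at 8.73 and 8.76 in nth-1;xpa-1, against 7 and 7.14 in N2 (difference 1.68, standard error 0.291, adjusted p = 0.0134). The troponin T gene tnt-3 was at 9.32 and 9.42 in nth-1;xpa-1, against 7.85 and 7.9 in N2 (1.49, adjusted p = 0.00896), and the troponin I genes tni-1 and tni-3, the paramyosin gene unc-15 and the calcium pump gene sca-1 rose as well. The actin gene act-3 was at 12.54 and 12.45 in nth-1;xpa-1, against 12.91 and 12.97 in N2, and fell by 0.45 (adjusted p = 0.0156), with actin genes being near copies whose probe sets can share signal. No muscle call was kept without 1 of the 4 arrays, and 33 genes rose and 7 fell in the 4 arrays alone.

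**Figure D4:**
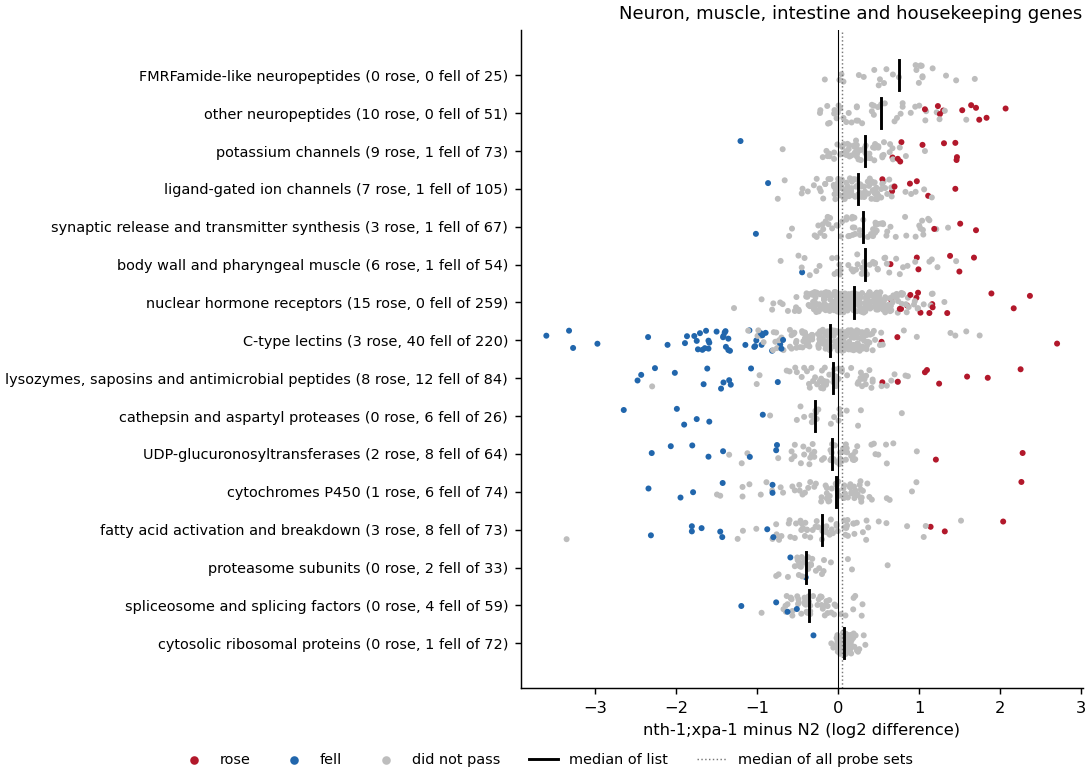
Difference between nth-1;xpa-1 and N2 (log2) for each measured gene of 16 lists of neuron, muscle, intestine and housekeeping genes, drawn as for the cell cycle lists. Neuropeptides and channels have medians right of 0, while C-type lectins and detoxification genes have long tails to the left with medians near 0, such as -0.10 for C-type lectins.

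Falls outnumbered rises among C-type lectins. Of 220 C-type lectins, secreted proteins that bind sugars and many of which respond to bacteria, 40 fell and 3 rose, while the median was -0.10. The level of clec-137 was 4.59 and 4.45 in nth-1;xpa-1, against 8.18 and 8.06 in N2 (difference -3.60, standard error 0.376, adjusted p = 0.00201), and that of clec-219 was 6.14 and 5.63 in nth-1;xpa-1, against 9.11 and 9.2 in N2 (-3.27, adjusted p = 0.000438). On the other side clec-264 was at 11.55 and 11.28 in nth-1;xpa-1, against 8.68 and 8.75 in N2 (difference 2.70, adjusted p = 0.00513). The changes of this family were therefore large in a minority of members. Its 3 rises among 220 genes were a smaller share than the 4.5% of all genes that rose. Between 9 and 11 of the falls and none of the rises were kept when 1 of the 4 arrays was left out, and 74 fell and 19 rose in the 4 arrays alone.

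Lysozymes, saposins and antimicrobial peptides had 12 falls and 8 rises among 84 genes. The falls were lysozymes for the most part. The invertebrate-type lysozyme gene ilys-5 was at 11.08 and 11 in nth-1;xpa-1, against 13.35 and 13.25 in N2 (difference -2.26, standard error 0.174, adjusted p = 0.000448), and lys-1, lys-2, lys-4, lys-7 and lys-8, of the amoeba-type class, all fell. Among the rises were the antimicrobial peptide genes nlp-25, nlp-26, nlp-27 and nlp-32, with nlp-26 at 9.27 and 9.03 in nth-1;xpa-1, against 6.92 and 6.88 in N2 (2.25, adjusted p = 0.00805). Both ilys-5 and lys-2 kept their calls without any 1 of the 4 arrays, and no rise did. Of 26 cathepsin and aspartyl proteases 6 fell and none rose, including asp-13, at 10.57 and 10.48 in nth-1;xpa-1, against 12.44 and 12.59 in N2 (-1.99, adjusted p = 0.000438), and cpr-1, at 11.88 and 11.54 in nth-1;xpa-1, against 13.27 and 13.33 in N2 (-1.59, adjusted p = 0.00586).

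Detoxification enzymes other than glutathione transferases showed more falls than rises. Of 64 UDP-glucuronosyltransferases, which attach sugar to foreign compounds, 8 fell and 2 rose. The gene ugt-43 was at 6.51 and 6.34 in nth-1;xpa-1, against 8.78 and 8.67 in N2 (-2.30, adjusted p = 0.00125), and ugt-46 was at 10.63 and 10.65 in nth-1;xpa-1, against 8.32 and 8.41 in N2 (2.27, adjusted p = 0.00563). Of 74 cytochromes P450 6 fell, with cyp-25A1 (-2.34) and cyp-35B1 (-1.94) in front, and 1 rose, cyp-13B1, by 2.26. Among genes of metals and heme 7 of 44 fell and 2 rose, and the heme-related genes hrg-7 and hrg-11.2 were on the falling side. Glutathione transferases had 4 rises and 2 falls among 45. Of all genes 4.5% rose and 4.59% fell. The 2 metal and heme rises and the 2 glutathione transferase falls were shares close to these. In the 4 arrays alone 23.1% of all genes rose and 21.8% fell. From 2 to 3 of the UDP-glucuronosyltransferase falls and 1 to 2 of the cytochrome P450 falls were kept when 1 of the 4 arrays was left out, and in the 4 arrays alone 23 and 24 fell and 10 and 8 rose.

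Genes of fat breakdown had more falls than rises. Among 73 genes of fatty acid activation and breakdown 8 fell and 3 rose, where 4.59% of all genes fell and 4.5% rose. The share that rose was thus near that of all genes. The carnitine palmitoyltransferase gene cpt-5, of the step that brings fatty acids into mitochondria, was at 5.17 and 5.31 in nth-1;xpa-1, against 6.92 and 7.17 in N2 (-1.80, adjusted p = 0.00243), and the peroxisomal oxidase gene acox-1.5 was at 9.02 and 8.77 in nth-1;xpa-1, against 11.09 and 11.32 in N2 (-2.31, adjusted p = 0.0129). In starved worms acs-2, for an acyl-CoA synthetase, is induced, and it was at 11.37 and 11.11 in nth-1;xpa-1, against 9.8 and 10.05 in N2 (difference 1.31, adjusted p = 0.00726). The palmitoyl-CoA desaturase gene fat-5 was at 7.7 and 8.17 in nth-1;xpa-1, against 10.14 and 10.29 in N2 (-2.28, adjusted p = 0.00285), and the lysosomal lipase gene lipl-1 at 9.74 and 9.79 in nth-1;xpa-1, against 11.88 and 11.99 in N2 (-2.17, adjusted p = 0.00363). Of 46 genes of fatty acid synthesis and desaturation, fat-5 among them, 3 fell and 2 rose, with a median of 0.05. In the 4 arrays alone 19 of these rose and 12 fell. Of 28 lipases 3 fell and none rose. In central carbon metabolism 4 of 55 rose and none fell, namely tre-5, the isocitrate dehydrogenase genes idha-1 and idhb-1 and the glyceraldehyde phosphate dehydrogenase gene gpd-3. No gene of 45 in the respiratory chain passed, with 5 higher and 2 lower at an unadjusted p under 0.05, and 16 rose and 10 fell in the 4 arrays alone. At that unadjusted threshold 2983 of all 22548 probe sets were higher and 2900 lower. Of all genes 23.1% rose and 21.8% fell in the 4 arrays alone. Of the fat breakdown calls 1 rise, acs-16, and 1 fall, cpt-5, were kept when any 1 of the 4 arrays was left out.

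Of 221 distinct genes of insulin signaling, aging and stress lists 11 rose and 8 fell, shares close to the 4.5% and 4.59% of all genes. Levels of ins-7, an insulin-like ligand gene, were 9.81 and 9.69 in nth-1;xpa-1, against 9.7 and 9.7 in N2. The glutathione transferase gene gst-4, a reporter of oxidative stress, was at 6.89 and 7.09 in nth-1;xpa-1, against 6.9 and 7.02 in N2. Neither gene had strains that separated, and their differences of 0.05 (standard error 0.619) and 0.03 (standard error 0.180) changed sign with the scaling, each being below 0 with median centring. Relative to xpa-1 the double mutant was 3.18 higher for ins-7 (adjusted p = 0.00525) and 0.97 lower for gst-4 (adjusted p = 0.00431).

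Levels of aqp-1, which encodes a glycerol channel, were 8 and 8.01 in nth-1;xpa-1, against 7.41 and 7.28 in N2, a difference of 0.66 that did not pass (adjusted p = 0.238). On the xpa-1 arrays it was 11.86 and 12.89, and the double mutant differed by -4.37 from xpa-1 (adjusted p = 0.00019) and by -4.28 from nth-1 (adjusted p = 0.000115). The mitochondrial superoxide dismutase gene sod-3 was at 7.12 and 7.22 in nth-1;xpa-1, against 8.18 and 7.99 in N2, and did not pass in the fit of 9 arrays (-0.92, adjusted p = 0.34) but did in the 4 arrays alone (adjusted p = 3.02e-05). Of 24 insulin-like ligands ins-37 rose and ins-31 fell. Among 12 dod and dao genes dod-3 and dod-23 fell. Small heat shock proteins had 2 rises among 12, of hsp-12.6 at 11.97 and 12.02 in nth-1;xpa-1, against 10.66 and 10.48 in N2 (1.43, adjusted p = 0.0313), and of hsp-16.20. No gene of 20 in the unfolded protein response of the endoplasmic reticulum or of 26 large chaperones passed, with 2 higher and 1 lower, and 4 higher and 2 lower, at an unadjusted p under 0.05, and 4 rose and 8 fell, and 10 rose and 8 fell, in the 4 arrays alone. Of all genes 23.1% rose and 21.8% fell in the 4 arrays alone.

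Nuclear hormone receptors, transcription factors of a family that is greatly expanded in worms, had 15 rises and no fall among 259 genes, where 4.5% of all genes rose, and 6 were lower at an unadjusted p under 0.05. The level of nhr-103 was 9.92 and 10 in nth-1;xpa-1, against 7.68 and 7.51 in N2 (difference 2.36, adjusted p = 0.00373), and that of nhr-274 was 7.56 and 7.35 in nth-1;xpa-1, against 5.24 and 5.34 in N2 (2.17, adjusted p = 0.000851). The arrays of the strains did not overlap for either gene. At most 2 of the rises were kept when 1 of the 4 arrays was left out, and in the 4 arrays alone 92 rose and 18 fell. Proteasome subunits had a median of -0.40, and 27 of 33 were below N2 on both arrays, against 32.1% of all genes. Of the 33, rpn-7 and rpt-1 fell and none rose. Of 59 spliceosome and splicing factor genes 4 fell, prp-40, rsp-6, prp-4 and snr-2, and none rose. The falls of the proteasome and splicing lists stand beside 4.59% of all genes that fell. Without 1 of the 4 arrays no fall of either list was kept, and in the 4 arrays alone 25 and 35 fell and 1 rose in each. Among 72 cytosolic ribosomal proteins rpl-11.1 alone passed, and it fell, with a difference of -0.305 that was the lowest of the list, whose highest was 0.335. The prion-like abu and pqn genes, cuticle collagens (1 rise and 6 falls of 146) and hedgehog-related and molting genes (4 rises and 6 falls of 150) had medians whose sign depended on the scaling. The hedgehog-like gene grl-17 was nevertheless at 5.59 and 5.57 in nth-1;xpa-1, against 9.26 and 9.24 in N2 (-3.67, adjusted p = 0.0179).

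The groups with most falls against N2 were set against each single mutant, with which the comparisons share the double mutant arrays. The double mutant differed from xpa-1 in 3556 higher genes (20.8%) and 2483 lower ones (14.5%), and from nth-1 in 3918 higher (22.9%) and 2505 lower (14.6%). Of the 47 replication genes 40 were lower than in xpa-1 and 36 lower than in nth-1, and none was higher than either. For the kinetochore the counts were 20 and 19 of 24, for the 14 genes of end joining, crosslink repair and bypass synthesis all 14 against both single mutants, and for P granule regulators 41 and 29 of 55. The level of mcm-6 was 9.35 and 9.38 in nth-1;xpa-1, against 11.12 and 11.62 in xpa-1 and 11.54, 11.06 and 11.01 in nth-1, while vit-6 was lowest in the double mutant on every array. The proteasome, of which 2 genes fell against N2, had 27 of 33 lower than in xpa-1 and 26 lower than in nth-1. The single mutants themselves were above N2 for this list, with medians of 0.42 in xpa-1 and 0.372 in nth-1. For DNA replication these medians were 0.44 and 0.138.

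Neuropeptides were higher in the double mutant than in the single mutants. Of the 25 FMRFamide-like genes 23 were higher in the double mutant than in xpa-1 and 21 higher than in nth-1, with median differences of 1.86 and 1.35, and none was lower. Of the 51 others 28 were higher than in each. The single mutants themselves were below N2 for these lists. The FMRFamide-like median against N2 was -1.025 in xpa-1, with 8 falls, and -0.573 in nth-1, with 3 falls. For the other neuropeptides it was -0.515 in xpa-1 and -0.387 in nth-1. The level of nlp-69 in nth-1;xpa-1, 10.95 and 10.89, lay above that of the single mutant arrays, which ran between 7.02 and 8.38. The log2 ratio of 3' to 5' ubiquitin probe sets was 1.15 and 1.12 in nth-1;xpa-1, against 0.65 to 0.83 on the 5 single mutant arrays, and that of actin 2.04 and 2.1 in nth-1;xpa-1, against 1.37 to 1.93, and their part in the comparisons with the single mutants was not tested. Core histones were higher than in xpa-1 for 19 of 26 and higher than in nth-1 for 17, beside 20.8% and 22.9% of all genes. Of 1275 chemoreceptors 300 were higher than in xpa-1 and 402 higher than in nth-1, to be read beside the same shares. Against N2, 111 chemoreceptors fell in xpa-1 and 179 in nth-1. By contrast, C-type lectins divided into 43 higher and 24 lower than in xpa-1, and 48 higher and 25 lower than in nth-1. The clec-137 transcript, whose difference from N2 was -3.60, was between 3.68 and 5 on the single mutant arrays. Comparisons with nth-1 lie across the gap in BioC level, and with the BioC group as a block 755 probe sets were higher and 322 lower than in nth-1, against 4890 and 3385 without it.

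**Figure D5:**
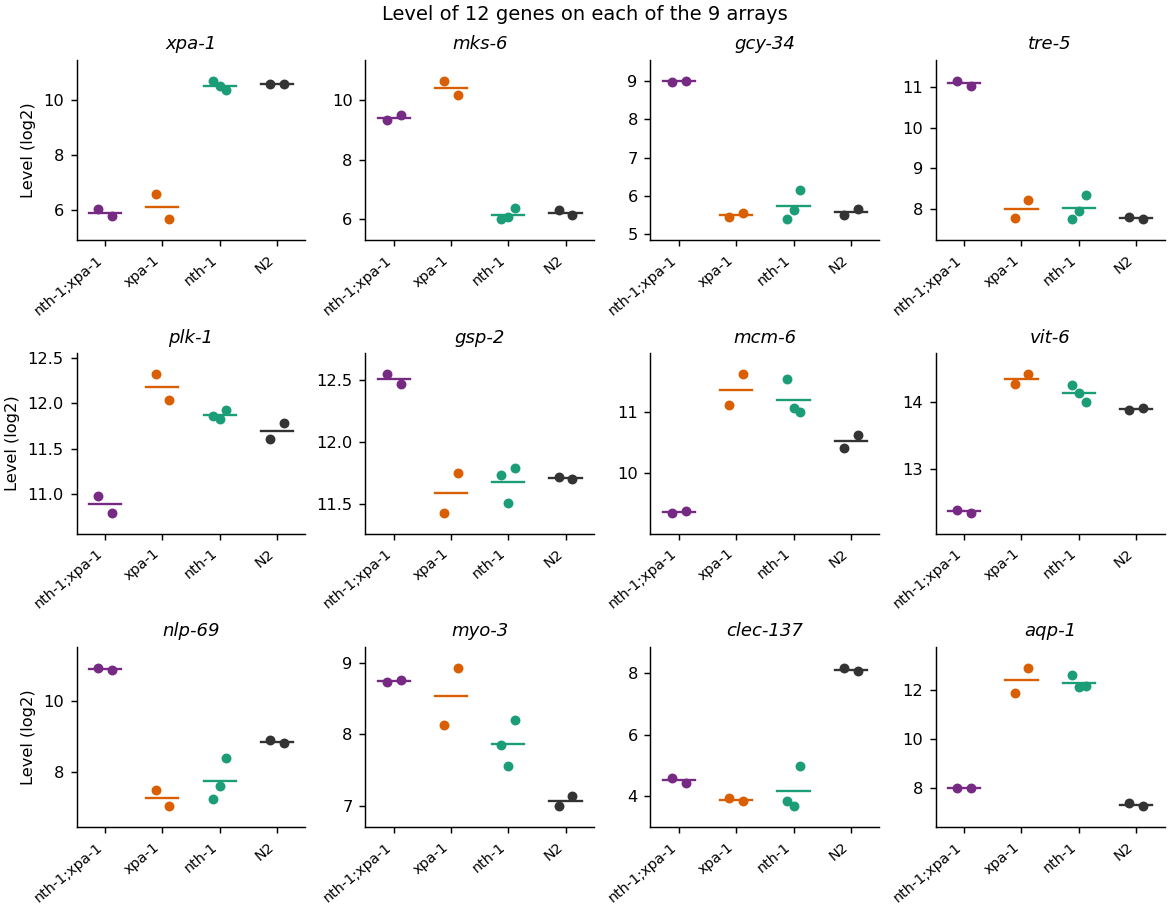
Level (log2, with an axis of its own for each gene) of 12 genes on each array of nth-1;xpa-1, xpa-1, nth-1 and N2, with points for arrays and lines for means. The double mutant stands alone for gcy-34, tre-5, plk-1, gsp-2, mcm-6, vit-6 and nlp-69, is near the other mutants for clec-137, near xpa-1 for the xpa-1 transcript, and near N2 for aqp-1.

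Calls were counted by chromosome, beside 4.5% of all genes that rose and 4.59% that fell. On the X chromosome 90 of 2349 genes rose (3.83%) and 52 fell (2.21%). On chromosome I 125 of 2469 rose (5.06%) and 145 fell (5.87%), and on chromosome III 87 of 2250 rose (3.87%) and 122 fell (5.42%). In the 4 arrays alone 29.2% of X-linked genes rose and 12.2% fell, and chromosomes I and III each had more falls than rises. Chromosomes were taken from the RefSeq annotation of the assembly WBcel235, and no test was made.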

How the data were processed

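RNA of nth-1;xpa-1, xpa-1, nth-1 and N2 worms was hybridized to the Affymetrix C. elegans Genome Array. In dChip the authors applied invariant set normalization, then its expression model on perfect match probes. The log2 values they deposited were used as given. The number of arrays limits the depth. A linear model with a trended, moderated variance (limma 3.58.1 under R 4.3.3) was fitted to all 9 arrays, with 5 residual degrees of freedom and Benjamini-Hochberg adjustment over 22548 probe sets at a threshold of 0.05, after a test on simulated data. A gene was represented by its brightest probe set that names 1 gene in the platform annotation. Named genes were the 10 largest rises, the 10 largest falls, and up to 4 called members a list and direction, by size of difference. The largest rises and falls were taken among called genes whose nth-1;xpa-1 and N2 arrays did not overlap. Genes that the study names, mostly for nth-1;xpa-1, were added. Other called list members were named after their values were seen. Members and lists were chosen with earlier results of these data known. The labels do not say that replicates are separate cultures, so p-values measure the spread between these arrays, which may be technical. The methods state more replicates per strain than the arrays used here. Alternatives were other scalings, an offset, a filter on dim probe sets, a ratio of means of 1.8, blocks, the 4 arrays alone and leaving out each array. Tables and figures were made with Python 3.11.15, pandas 2.3.3 and matplotlib 3.10.9. Promoter sequences were not used here. A result of the dauer signaling list is not reported here.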

Additional observations from a re-analysis of the deposited data

How the results depend on the processing

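Between nth-1;xpa-1 and N2, 957 probe sets were higher and 991 lower. The arrays of both strains alone gave 5100 and 4759, the arrays of the BioC group of N2 5074 and 4762, and a ratio of means of at least 1.8 gave 1518 higher. Leaving out 1 array gave 62 to 3037 higher and 73 to 2873 lower. For genes in lists, 148 rose and 289 fell, against 941 and 1029 in the 4 arrays alone, 936 and 1030 in the BioC group, 242 rises by the ratio, and 12 to 519 and 23 to 685 with 1 array left out. The numbers 1 and 2 did not pair the arrays (deviations of the first replicates of nth-1;xpa-1 and N2 correlated at -0.131). The replicate block gave 2618 higher and 2429 lower probe sets, and 449 and 607 list genes. The crossed pairing, chosen after seeing the data, gave 2620 and 2457, and 446 and 615. Against xpa-1, 4365 were higher and 3489 lower, with 2896 higher after median centring, 2629 higher above the 40th percentile, 6908 and 5586 in the BioC group, and 2001 to 6473 and 1640 to 4837 with 1 array left out. Against nth-1, 4890 were higher and 3385 lower, with 2996 higher after median centring, 2692 above the 40th percentile, 2549 by the ratio, 755 and 322 with the BioC block, and 1979 to 7060 and 1274 to 4336 with 1 array left out. The xpa-1 difference stayed between -4.795 and -4.545 with 1 array left out. Genes with differences near 0 changed sign: with 1 array left out, nth-1 ran from -0.21 to 0.10 (without N2 replicate 1), gst-5 from -0.09 (without nth-1;xpa-1 replicate 2) to 0.28, ins-7 from -0.01 (without nth-1;xpa-1 replicate 1) to 0.11, and gst-4 from -0.07 (without nth-1;xpa-1 replicate 2, and -0.03 without N2 replicate 1) to 0.13. With median centring ins-7 was -0.04 and gst-4 -0.06, and with quantile normalization gst-4 was -0.074. Fits with fewer arrays have fewer residual degrees of freedom, and the cause of the other shifts was not tested.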

Other observations

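Gene families outside the lists were counted by the letters of their symbols, after values were seen and with no test. Of 26 nuclear pore genes (npp), whose products carry molecules in and out of the nucleus, 6 fell and none rose in nth-1;xpa-1, with a median of -0.59, and 19 fell in the 4 arrays alone. Of 12 nspg genes 5 fell and none rose (median -0.64), of 25 scl genes 6 fell and none rose (median -0.33), and of 34 vps genes of vacuolar protein sorting 5 fell and none rose (median -0.18). Bestrophin chloride channel genes (best) had 5 rises and no fall among 25, with a median of 0.32, and 12 rose and 3 fell in the 4 arrays alone. The nssp family had 6 rises and 1 fall among 43, and the transthyretin-related ttr family 4 rises and no fall among 39. Of 2981 genes with several probe sets 366 had at least 1 call, and 1 of these had calls in both directions.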
